A study of Marchantia polymorpha and Arabidopsis thaliana with 54 samples.

Results

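The control seedlings of a second batch were compared with those of a first batch in both Arabidopsis thaliana lines of a heat-stress study. All control RNA-seq libraries of this species entered, 12 of the 54 samples in the series, chosen by their labels for treatment and batch and not by any measured value. The 4 groups, of 3 libraries each, were eTK seedlings of batch 2 (replicates 4 to 6), eTK seedlings of batch 1 (replicates 1 to 3), Col-0 seedlings of batch 2 (replicates 4 to 6) and Col-0 seedlings of batch 1 (replicates 1 to 3). Col-0 is the wild-type accession. eTK is labelled as a knockout of 3 heat shock factor genes, namely HSFA1A and HSFA1B together with HSFA1D. All 12 libraries came from whole seedlings 7 days old, raised on agar with half-strength MS salts and sucrose at 22 °C in continuous light, and none of them was heated. The 6 heated libraries of this species all belonged to batch 1 and entered only an alternative fit of all 18 Arabidopsis libraries. The labels number the batches without saying what set them apart, and they give no hour of collection. Growth, harvest, extraction and sequencing therefore cannot be told apart as sources of a batch difference.

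The 3 genes named in the genotype label were examined first. HSFA1B (AT5G16820), an activator of the heat shock response, was at 1.62, 1.35 and 1.75 CPM in eTK of batch 2, against 2.04, 1.77 and 1.07 CPM in eTK of batch 1, and at 11.5, 11.7 and 12.7 CPM in Col-0 of batch 2, against 16.6, 15.3 and 14.4 CPM in Col-0 of batch 1. HSFA1D (AT1G32330), a second activator of the same family, was at 5.69 to 7.33 CPM in eTK of batch 2, against 5.75 to 6.40 in batch 1, and at 16.2 to 17.4 CPM in Col-0 of batch 2, against 14.9 to 16.0 in batch 1. HSFA1A (AT4G17750), the third, was at 10.3 to 13.8 CPM in eTK of batch 2, against 13.0 to 15.3 in batch 1, and at 5.25 to 7.57 CPM in Col-0 of batch 2, against 6.63 to 7.76 in batch 1. In both batches HSFA1B and HSFA1D were thus lower in every eTK library than in any Col-0 library, whereas HSFA1A was higher in every eTK library. Counts per gene do not show whether a transcript is functional, so the HSFA1A counts neither bear out nor contradict the knockout named in the label. The line is called eTK here, as in the labels. None of the 3 genes passed the test between batches, with log2 differences of batch 2 over batch 1 of −0.18 ± 0.10, adjusted p = 0.177 for HSFA1A, −0.22 ± 0.14, adjusted p = 0.215 for HSFA1B and 0.10 ± 0.07, adjusted p = 0.299 for HSFA1D (edgeR quasi-likelihood, SE). HSFA1B passed when eTK batch 1 replicate 3 was left out (−0.33, adjusted p = 0.0119), and its Col-0 libraries did not overlap between batches (adjusted p = 0.103 within Col-0).

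The libraries held 63270189 to 110875442 counts, and levels are given as CPM, counts per 1000000 of the library total as corrected by TMM factors of 0.970 to 1.042. Of 27655 genes, 22443 passed the filter on low counts and were tested. With genotype as a covariate, 8485 genes (37.8%) differed between batches at an adjusted p below 0.05, of which 4618 (20.6%) were higher in batch 2 and 3867 (17.2%) lower. This balance turned with the 6 heated libraries also in the fit, to 3873 higher and 4377 lower. In eTK it turned to 2652 higher and 2971 lower, against 3502 and 2827 without them. By 2-fold or more, 826 (3.68%) were higher and 318 (1.42%) lower. The median log2 difference over all genes tested was 0.03. The 100 most abundant genes of a library took 19.5% ± 1.02 of its counts in batch 2 and 22.3% ± 1.36 in batch 1 (SD, n = 6 each; exact permutation test within lines, p = 0.005, the smallest it can give, adjusted p = 0.015). Mitochondrial genes took 0.00623% ± 0.00130 of counts in batch 2 and 0.00459% ± 0.000340 in batch 1 (exact permutation p = 0.015, adjusted p = 0.0225). Plastid genes took 0.0539% ± 0.0271 of counts in batch 2 and 0.0366% ± 0.0114 in batch 1 (exact permutation p = 0.1, adjusted p = 0.1). The median log2 difference was 0.127 in the quartile of shortest transcripts and −0.051 in that of the longest, and 0.143 in the quartile lowest in GC content and −0.032 in the highest. The part of length and GC content in the results was not tested.

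**Figure D1:**
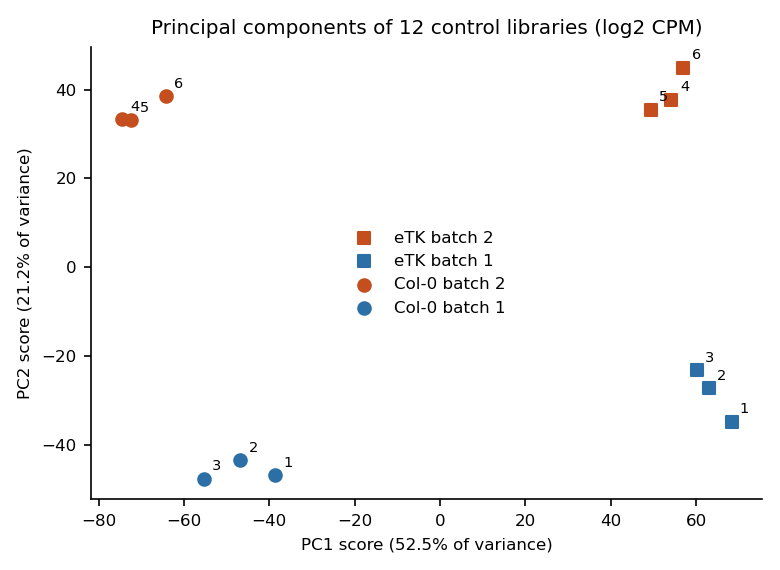
Scores of the 12 control libraries on the first and second principal components of log2 CPM; squares are eTK, circles Col-0, orange batch 2, blue batch 1, and digits give the replicate. The first component (52.5% of the variance) separates the lines and the second (21.2%) the batches.

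The lines were separated on the first principal component and the batches on the second, as the plot of principal components shows. All batch 2 libraries scored above 33 on the second component and all batch 1 libraries below −23. Batch was thus the second largest axis among these libraries, after genotype.

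The plant circadian clock is a set of transcription factors that repress and activate each other in turn through the day. CCA1 and LHY peak near dawn and bind a DNA sequence called the evening element in the promoters of evening genes, whereas the PRR proteins, made one after another from morning to evening, repress CCA1 and LHY. RVE8 and its LNK partners activate evening genes, the evening complex of ELF3, ELF4 and LUX represses genes such as PIF4 through the night, and in continuous light the cycle goes on with a period of about a day.

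Clock genes were among the largest differences between batches, and the largest of them had the same direction in both lines. LHY (AT1G01060), a dawn MYB-like factor, was at 29.5, 27.9 and 18.8 CPM in eTK of batch 2, against 3.10, 2.09 and 2.30 CPM in eTK of batch 1, and at 32.9, 34.9 and 30.8 CPM in Col-0 of batch 2, against 1.73, 1.63 and 2.04 CPM in Col-0 of batch 1. The batch 2 libraries of either line lay far above all batch 1 libraries, and LHY was 13.6-fold higher in batch 2 (log2 3.77 ± 0.18, adjusted p = 6.75e-09). RVE8 (AT3G09600), an activator of evening genes, was at 24.1, 23.2 and 19.7 CPM in eTK of batch 2, against 2.40, 1.80 and 1.04 CPM in eTK of batch 1, and at 25.4, 30.9 and 32.0 CPM in Col-0 of batch 2, against 1.06, 1.31 and 1.49 CPM in Col-0 of batch 1, again with no overlap (log2 4.10 ± 0.21, adjusted p = 1.10e-08). CCA1 (AT2G46830), the partner of LHY, was at 5.05 to 5.37 CPM in eTK of batch 2, against 1.31 to 2.68 in batch 1, and at 4.03 to 4.57 CPM in Col-0 of batch 2, against 0.997 to 1.39 in batch 1, a smaller rise (log2 1.54 ± 0.19, adjusted p = 2.72e-05). RVE1, which links the clock to auxin, and RVE2 (CIR1) rose by 2.63 ± 0.09 and 2.69 ± 0.13 on the log2 scale.

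The genes that repress the dawn factors went the other way. PRR7 (AT5G02810), a daytime repressor of CCA1 and LHY, was at 5.41, 5.38 and 5.14 CPM in eTK of batch 2, against 242, 199 and 179 CPM in eTK of batch 1, and at 3.97, 3.02 and 4.51 CPM in Col-0 of batch 2, against 101, 112 and 99.7 CPM in Col-0 of batch 1. Every batch 2 library was below every batch 1 library, and the level was 32.7-fold lower (log2 −5.03 ± 0.13, adjusted p = 4.08e-11). PRR5 (AT5G24470), which acts after PRR7, was at 10.7 to 12.6 CPM in eTK of batch 2, against 54.3 to 74.7 in batch 1, and at 12.2 to 13.3 CPM in Col-0 of batch 2, against 48.1 to 49.8 in batch 1 (log2 −2.21 ± 0.11, adjusted p = 4.13e-09). PRR9 (AT2G46790), the morning member of the series, had few counts, at 0.212 to 0.294 CPM in eTK of batch 2, against 0.589 to 1.82 in batch 1, and at 0.0908 to 0.353 CPM in Col-0 of batch 2, against 0.693 to 1.03 in batch 1 (log2 −1.92 ± 0.34, adjusted p = 6.09e-04). TOC1 (AT5G61380), the evening member, was at 85.1 to 92.4 CPM in eTK of batch 2, against 162 to 173 in batch 1, and at 86.1 to 94.1 CPM in Col-0 of batch 2, against 151 to 159 in batch 1, and it fell by 0.85 ± 0.05 on the log2 scale (adjusted p = 3.15e-08).

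Evening genes outside the PRR series fell too. GI (AT1G22770), which stabilises the F-box protein ZTL and acts in photoperiodic flowering, was at 8.76, 8.59 and 8.30 CPM in eTK of batch 2, against 203, 165 and 147 CPM in eTK of batch 1, and at 11.0, 9.83 and 11.0 CPM in Col-0 of batch 2, against 142, 144 and 143 CPM in Col-0 of batch 1 (log2 −4.04 ± 0.12, adjusted p = 5.44e-11). FKF1, a blue-light F-box protein that works with GI, was at 10.4 to 11.2 CPM in eTK of batch 2, against 75.3 to 99.7 in batch 1, and at 8.23 to 8.96 CPM in Col-0 of batch 2, against 55.5 to 59.1 in batch 1 (log2 −2.88 ± 0.08, adjusted p = 4.08e-11). Of the evening complex, LUX (AT3G46640) was at 48.1 to 55.1 CPM in eTK of batch 2, against 96.2 to 101 in batch 1, and at 45.6 to 59.2 CPM in Col-0 of batch 2, against 97.7 to 105 in batch 1 (log2 −0.95 ± 0.07, adjusted p = 1.32e-07). Its partner ELF4 (AT2G40080) fell by 0.63 ± 0.11 on the log2 scale, and ELF3 rose slightly (0.23 ± 0.06, adjusted p = 0.00765). The LNK coactivators of RVE8 fell, LNK1 (log2 −2.80 ± 0.12) and LNK4 (−3.02 ± 0.25), while RVE8 itself rose. RVE7, another MYB-like factor of the morning list, was also lower (−1.49 ± 0.19). PIF4 (AT2G43010), a growth-promoting bHLH factor under clock and light control, was at 3.04, 2.81 and 3.13 CPM in eTK of batch 2, against 150.1, 126 and 106 CPM in eTK of batch 1, and at 1.39, 1.35 and 3.12 CPM in Col-0 of batch 2, against 62.6, 61.9 and 56.7 CPM in Col-0 of batch 1, 36.8-fold lower in batch 2 (log2 −5.20 ± 0.20, adjusted p = 1.00e-09).

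**Figure D2:**
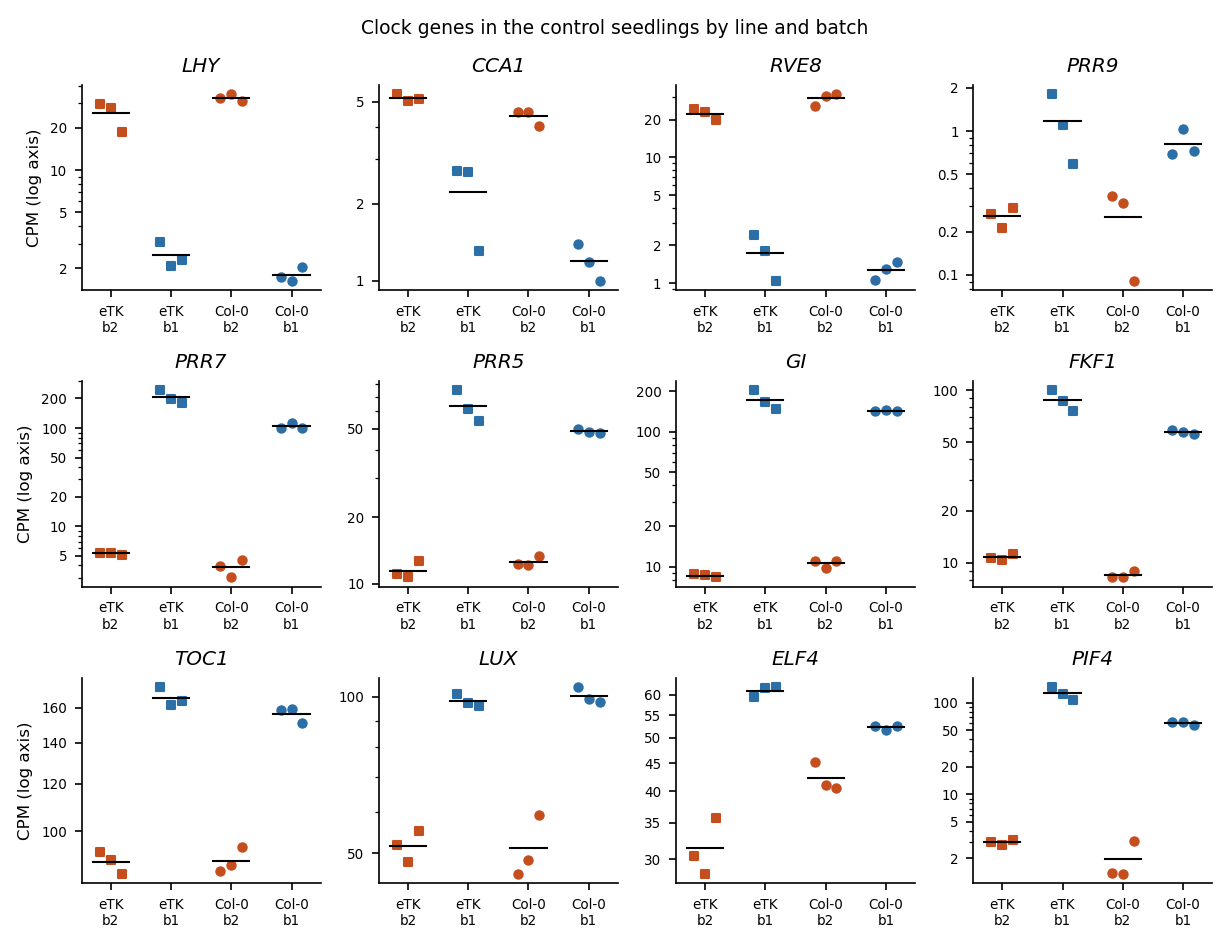
CPM on a log axis of 12 clock genes in each control library, by line (squares eTK, circles Col-0) and batch (orange b2, blue b1); horizontal bars are means of 3 libraries. LHY, CCA1 and RVE8 are higher and the other 9 genes lower in batch 2, and in none of the 12 panels do the batches overlap within a line.

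Of 14 morning-phased clock genes 6 were higher and 7 lower in batch 2, and of 12 evening-phased genes 1 was higher and 9 lower, against 20.6% higher and 17.2% lower of all genes tested. Among 11 genes of clock output and photoperiod 2 were higher and 7 lower, with a median log2 difference of −1.30. The RNA-binding protein GRP7, a clock-driven oscillator output, fell (−2.60 ± 0.11, adjusted p = 1.45e-09), as did COR27, a cold-induced clock repressor (−2.08 ± 0.11), and CDF3, a DOF factor degraded through FKF1 and GI (−2.32 ± 0.09). BBX18 and BBX19, B-box factors, rose by 1.28 ± 0.13 and 1.20 ± 0.10. Counted within lines, 6 morning genes rose and 7 fell in eTK (all genes: 15.6% higher, 12.6% lower), and 6 rose and 5 fell in Col-0 (all genes: 19.9% higher, 15.2% lower). The evening genes that fell numbered 9 in eTK and 8 in Col-0. The interaction, the batch difference in eTK minus that in Col-0, called 2 morning genes (RVE7, and LNK2, which was chosen after its value was seen), 2 evening genes (GI and ELF4) and none of the clock output genes, against 5.95% of all genes. ELF4 had log2 differences of −0.96 ± 0.08 in eTK and −0.31 ± 0.08 in Col-0 (interaction −0.65 ± 0.12, adjusted p = 0.00901), and it was called in all 12 fits that left out 1 library.

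Promoters of 6 genes are shown, 4 of evening-phased or clock-output genes that fell together, and those of a cold gene and a phosphate gene described further on, because they carry the motifs whose shares are given next. Each is the 300 bases before the gene's annotated start, read 5′ to 3′ on the gene's strand from RefSeq TAIR10.1. The genome build behind the deposited counts is not given in the sources used here, and genes were matched by their locus identifiers. Capitals mark evening elements (AAAATATCT or its reverse complement AGATATTTT) in the first 4, CRT/DRE cores (CCGAC), bound by the cold factors called CBF, in RD29A, and P1BS elements (GNATATNC), bound by the phosphate-starvation regulator PHR1, in SPX3. They lie at chr5:8358547-8358846 (minus strand), chr5:24674663-24674962 (plus), chr1:25508339-25508638 (plus), chr2:9266558-9266857 (minus), chr5:21240417-21240716 (plus) and chr2:18606110-18606409 (plus).
PRR5: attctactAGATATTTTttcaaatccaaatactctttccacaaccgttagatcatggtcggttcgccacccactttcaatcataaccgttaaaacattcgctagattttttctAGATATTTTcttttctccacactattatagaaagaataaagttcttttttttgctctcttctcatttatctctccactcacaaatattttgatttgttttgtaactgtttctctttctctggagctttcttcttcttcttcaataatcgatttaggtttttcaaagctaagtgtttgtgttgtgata
TOC1: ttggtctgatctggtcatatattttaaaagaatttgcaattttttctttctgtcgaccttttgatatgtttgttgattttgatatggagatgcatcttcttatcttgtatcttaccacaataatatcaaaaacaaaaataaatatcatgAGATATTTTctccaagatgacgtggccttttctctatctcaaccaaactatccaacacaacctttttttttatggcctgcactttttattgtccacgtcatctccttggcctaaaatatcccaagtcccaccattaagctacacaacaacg
FKF1: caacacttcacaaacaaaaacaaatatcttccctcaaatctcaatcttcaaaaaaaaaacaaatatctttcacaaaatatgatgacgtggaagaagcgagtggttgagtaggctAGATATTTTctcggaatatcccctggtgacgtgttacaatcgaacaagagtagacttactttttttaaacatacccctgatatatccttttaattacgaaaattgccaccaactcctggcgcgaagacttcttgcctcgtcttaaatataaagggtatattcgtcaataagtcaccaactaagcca
GRP7: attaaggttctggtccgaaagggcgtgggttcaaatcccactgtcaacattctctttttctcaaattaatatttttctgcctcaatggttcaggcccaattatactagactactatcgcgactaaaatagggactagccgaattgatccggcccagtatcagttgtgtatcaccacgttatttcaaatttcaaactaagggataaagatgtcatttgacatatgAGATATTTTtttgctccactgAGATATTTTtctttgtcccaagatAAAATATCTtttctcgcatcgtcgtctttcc
RD29A: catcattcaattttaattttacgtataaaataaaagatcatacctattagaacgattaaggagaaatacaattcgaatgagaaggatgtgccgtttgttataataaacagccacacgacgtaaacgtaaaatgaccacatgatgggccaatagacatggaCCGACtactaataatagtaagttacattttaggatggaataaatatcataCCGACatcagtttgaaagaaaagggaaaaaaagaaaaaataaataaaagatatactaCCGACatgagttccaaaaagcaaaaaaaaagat
SPX3: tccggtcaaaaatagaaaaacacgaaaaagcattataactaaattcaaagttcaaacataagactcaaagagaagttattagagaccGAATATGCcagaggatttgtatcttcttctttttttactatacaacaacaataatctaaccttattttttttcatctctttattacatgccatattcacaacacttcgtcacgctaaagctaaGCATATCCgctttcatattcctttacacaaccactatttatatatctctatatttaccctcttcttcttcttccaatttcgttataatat

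GRP7 held 3 evening elements between 23 and 76 bases before its start, PRR5 held 2, and TOC1 and FKF1 1 each. Of 22333 promoters read, 2.85% held an evening element on either strand. The share was 16.4% among the 318 genes lower in batch 2 by 2-fold or more and 2.31% among 822 genes higher by 2-fold or more. Read from the motif, 33.9% of the 637 genes with an evening element were lower in batch 2 and 13.8% higher. Over all promoters read, 17.3% were lower and 20.6% higher. In eTK 28.6% of the genes with an evening element were lower, against 12.7% over all promoters, and in Col-0 30.8%, against 15.3%. The G-box (CACGTG), bound by factors such as the PIFs and HY5, stood in 15.7% of the promoters of genes lower by 2-fold or more, against 7.84% of all. The CRT/DRE core stood in 21.1% of them against 14.7% of all. The W-box (TTGACC or TTGACT), bound by WRKY factors, stood in 39.7% of promoters of genes higher by 2-fold or more, against 32.3% of all, and the site II element (TGGGCC) in 7.06% against 16.3%. The I-box (GATAAG, in 14.5% of all promoters) stood in 21.1% of promoters of genes lower by 2-fold or more, as the CRT/DRE core did. It stood in 12.2% of promoters of genes higher by 2-fold or more. The telo-box (AAACCCTA, 4.3% of all) stood in 2.19% of promoters of these higher genes and in 4.09% of those of the lower genes. Other motifs searched were the CCA1-binding site (AAAAATCT, 7.89% of all) and the heat shock element (GAANNTTC, 11.4%). Among the higher genes their shares were 6.81% and 13.5%. Both strands were read, a palindrome was counted once, and matches of different motifs may overlap. The PRR7, GI and PIF4 promoters held no evening element in this window. A match is a description of the letters and not of a bound site.

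Light signalling genes differed in both directions, 13 higher and 14 lower of 32, against 20.6% higher and 17.2% lower of all genes. HY5 (AT5G11260), a bZIP factor that promotes light responses, was at 24.5, 23.7 and 20.7 CPM in eTK of batch 2, against 6.56, 8.11 and 8.43 CPM in eTK of batch 1, and at 33.3, 26.3 and 30.0 CPM in Col-0 of batch 2, against 9.32, 9.14 and 5.19 CPM in Col-0 of batch 1. No library of batch 1 reached a library of batch 2 (log2 1.74 ± 0.14, adjusted p = 6.94e-07). HYH, its homolog, was at 11.9 to 17.4 CPM in eTK of batch 2, against 1.91 to 2.61 in batch 1, and at 32.4 to 35.3 CPM in Col-0 of batch 2, against 3.17 to 3.96 in batch 1 (log2 3.00 ± 0.13, adjusted p = 1.36e-09). SPA3, a partner of the COP1 ubiquitin ligase that degrades HY5, and RUP2, a repressor of the UV-B receptor, rose by 1.66 ± 0.07 and 1.16 ± 0.13. BBX25 was higher (1.52 ± 0.09), whereas BBX24 and BBX22 were lower (−1.84 ± 0.08 and −1.56 ± 0.18). PHYA, the far-red photoreceptor, fell by 0.98 ± 0.13.

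Among PIF factors and genes of shade and warmth responses, 1 of 21 was higher and 11 lower (median log2 −0.39). Of this list 57.1% was called, against 37.8% of all genes. Besides PIF4, the bHLH protein PRE1 fell (log2 −2.08 ± 0.22), and so did the auxin-responsive repressor IAA29 (−1.86 ± 0.47). In eTK IAA29 fell (−2.93 ± 0.46, adjusted p = 4.15e-04), in Col-0 it did not pass (−0.64 ± 0.47, adjusted p = 0.319), and the interaction missed the threshold (adjusted p = 0.0558). The members that fell numbered 13 in eTK (12.6% of all genes) and 5 in Col-0 (15.2% of all genes). The interaction called 1 member, 4.76% of the list against 5.95% of all genes. With single libraries left out it called 0 to 6.

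Genes for the light-harvesting antenna, the pigment proteins that feed light into the photosystems, had the lowest median of the 50 lists with genotype as covariate and in Col-0, whereas in eTK that of the cold list was lower (−2.50 against −1.82). Of 21 antenna genes 17 were lower and 4 higher in batch 2 (100% called, against 37.8% of all genes), with a median log2 difference of −1.86. LHCB2.2 (AT2G05070) was at 74.1, 79.6 and 95.8 CPM in eTK of batch 2, against 1492, 1444 and 1394 CPM in eTK of batch 1, and at 30.4, 28.9 and 33.2 CPM in Col-0 of batch 2, against 678, 564 and 525 CPM in Col-0 of batch 1. Its batch 2 libraries lay below its batch 1 libraries in each line (log2 −4.19 ± 0.10, adjusted p = 8.56e-12). LHCB3 was at 533 to 579.7 CPM in eTK of batch 2, against 4463 to 4842 in batch 1, and at 248 to 308 CPM in Col-0 of batch 2, against 2310 to 2894 in batch 1 (log2 −3.17 ± 0.09), and LHCA1, of photosystem I, fell by 2.68 ± 0.11. The near-identical LHCB1.1, LHCB1.2 and LHCB1.3 and the close pair LHCB2.1 and LHCB2.2 may have exchanged reads in the counting, so that single values of these genes are uncertain. The 4 genes that rose, named after their values were seen, were LHCB4.3 (1.84 ± 0.19), LHCB7 (0.96 ± 0.09), LHCA6 (0.49 ± 0.10) and LHCA5 (0.22 ± 0.07). In eTK 17 antenna genes fell and 4 rose, in Col-0 17 fell and 2 rose, and the interaction called 1 member, LHCA6.

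Other nuclear photosynthesis genes fell less or rose. Of 29 genes of the photosystem cores and electron transport none was higher and 19 were lower (median −0.49). The falls were 65.5% of the list, against 17.2% of all genes, and were led by PSAF, a docking subunit of photosystem I (−1.40 ± 0.10). Within eTK, however, 4 members rose and 17 fell (72.4% called, against 28.2% of all genes). Within Col-0 none rose and 20 fell (69% called, against 35.1%). The Calvin cycle list moved the opposite way, with 14 of 19 higher and none lower (median 0.47). The rises were 73.7% of it, against 20.6% of all genes. FBA1, a plastid aldolase, was at 1118 to 1314 CPM in eTK of batch 2, against 322 to 375 in batch 1, and at 956 to 1246 CPM in Col-0 of batch 2, against 339.6 to 492 in batch 1 (log2 1.57 ± 0.11, adjusted p = 2.09e-07). CP12-2, a regulator of the cycle, rose by 1.30 ± 0.12, and RCA, the activase of Rubisco, by 0.97 ± 0.09. GAPA, a glyceraldehyde-phosphate dehydrogenase, rose by 1.13 ± 0.10 in eTK and 0.50 ± 0.10 in Col-0 (interaction 0.63 ± 0.14, adjusted p = 0.0204), a difference between lines called in 6 of 12 fits without 1 library. In this list 17 members rose in eTK (89.5%, against 15.6% of all genes) and 9 in Col-0 (47.4%, against 19.9%). The RBCS copies share most of their sequence, so that their single values are uncertain. Of 20 genes of chlorophyll synthesis and greening factors 5 were higher and 4 lower, with a median log2 difference of −0.008. Of this list 45% was called, against 37.8% of all genes. By line 7 rose and 3 fell in eTK, and 5 rose and 6 fell in Col-0. Its largest differences went both ways. PORA, a protochlorophyllide reductase of dark-grown seedlings, fell by 3.39 ± 0.32, while the greening factors CGA1 and GLK2 rose by 1.11 ± 0.14 and 0.95 ± 0.11.

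Flavonoid synthesis, the branch of metabolism that makes sunscreen pigments, showed the largest median rise of the 50 lists. Of 22 members 20 were higher and 1 lower (95.5% called, against 37.8% of all genes), with a median log2 difference of 2.19. TT4 (AT5G13930), chalcone synthase, the first committed enzyme, was at 184, 193 and 159 CPM in eTK of batch 2, against 11.3, 23.2 and 30.5 CPM in eTK of batch 1, and at 435, 332 and 419 CPM in Col-0 of batch 2, against 40.5, 37.6 and 31.3 CPM in Col-0 of batch 1. The batch 2 libraries stood several-fold above the batch 1 libraries in each line (log2 3.24 ± 0.20, adjusted p = 1.01e-07). FLS1, flavonol synthase, rose by 2.77 ± 0.14, DFR, dihydroflavonol reductase, by 3.35 ± 0.23, and GSTF12, which carries anthocyanin to the vacuole, by 3.41 ± 0.18. MYB111, an activator of the flavonol genes, rose by 2.48 ± 0.19. The single fall was MYBL2, a repressor of the anthocyanin genes, at 2.45 to 4.79 CPM in eTK of batch 2, against 46.6 to 95.6 in batch 1, and at 4.57 to 6.06 CPM in Col-0 of batch 2, against 42.6 to 50.7 in batch 1 (log2 −3.73 ± 0.29, adjusted p = 6.84e-07). In eTK 20 members rose and 1 fell, and in Col-0 21 rose and 1 fell. Of 12 genes of the high light and UV list 6 were higher and 4 lower (83.3% called, against 37.8% of all genes). The number lower was 2 when eTK batch 2 replicate 4 or 6 or eTK batch 1 replicate 1 or 2 was left out. NPQ1, the violaxanthin de-epoxidase, fell by 0.44 ± 0.08. The early light-induced proteins ELIP1 and ELIP2, made under strong light, rose by 1.63 ± 0.21 and 2.61 ± 0.30, and SIG5, a plastid sigma factor induced by blue light, by 1.16 ± 0.15.

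**Figure D3:**
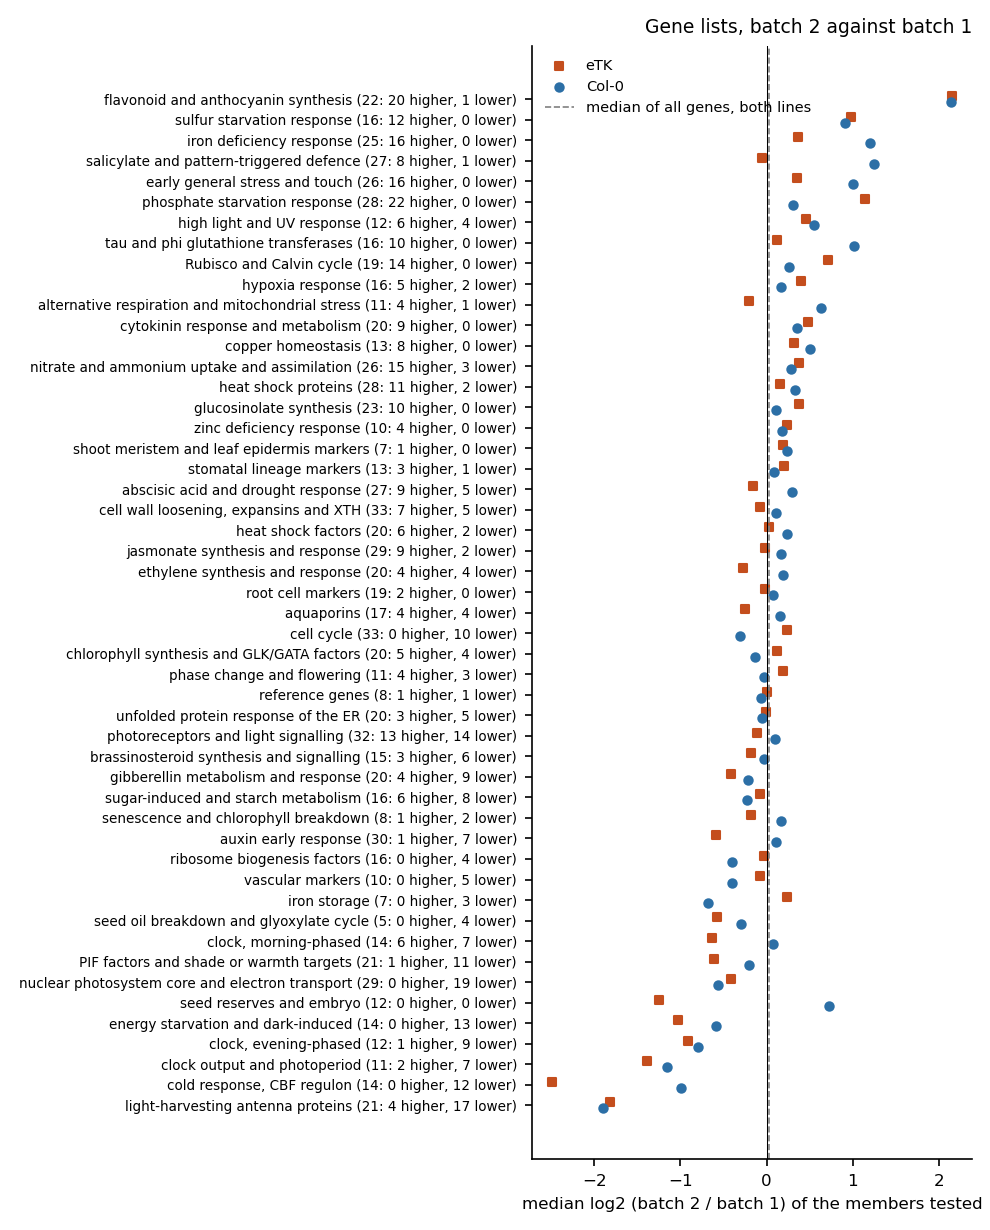
Median log2 difference, batch 2 over batch 1, of the tested members of 50 gene lists in eTK (squares) and Col-0 (circles), with the number tested, higher and lower in parentheses from the fit with genotype as covariate. Flavonoid synthesis lies highest at 2.15 in eTK and 2.14 in Col-0, and antenna proteins lie at −1.82 and −1.90, while the cold list lies at −2.50 in eTK and −0.99 in Col-0.

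Genes induced by darkness or lack of sugar were lower in batch 2, none of 14 higher and 13 lower (median −0.70). The falls were 92.9% of the list, against 17.2% of all genes. In eTK 13 fell and none rose, and in Col-0 11 fell and 1 rose. The member that rose in Col-0, named after its value was seen, was DIN2, a dark-induced glucosidase (4.45 ± 1.36, adjusted p = 0.0266). It did not pass without Col-0 batch 2 replicate 4 or Col-0 batch 1 replicate 1 or 2. The interaction called TPS11 and BGAL4, a beta-galactosidase, with values of −0.66 ± 0.18, adjusted p = 0.0495, and −0.80 ± 0.21, adjusted p = 0.0395. They were called in 2 and 3 of 12 fits without 1 library. ASN1 (AT3G47340), an asparagine synthetase of starved tissue, was at 0.402, 0.484 and 0.375 CPM in eTK of batch 2, against 30.7, 15.2 and 8.58 CPM in eTK of batch 1, and at 2.28, 0.269 and 0.454 CPM in Col-0 of batch 2, against 13.8, 12.6 and 8.50 CPM in Col-0 of batch 1. The highest batch 2 library, Col-0 replicate 4, was still below every batch 1 library (log2 −4.40 ± 0.55, adjusted p = 4.77e-05). SEN1, a dark-induced senescence gene, fell (log2 −2.90 ± 0.23), as did DRM1, a dormancy-associated gene (−1.87 ± 0.18), and TPS11, a trehalose phosphatase/synthase (−1.02 ± 0.13). Starch genes differed in both directions. SEX1, the dikinase that starts starch breakdown, fell (log2 −1.81 ± 0.09), as did PHS2, a cytosolic phosphorylase (−1.68 ± 0.08). GBSS1, the granule-bound synthase that makes amylose, was at 19.4 to 24.5 CPM in eTK of batch 2, against 4.33 to 6.25 in batch 1, and at 12.0 to 17.6 CPM in Col-0 of batch 2, against 2.57 to 4.02 in batch 1 (log2 2.07 ± 0.14, adjusted p = 1.64e-07), and the beta-amylases BAM3 and BAM5 rose by 1.29 ± 0.14 and 2.35 ± 0.33. Of the 16 members 6 were higher and 8 lower (87.5% called, against 37.8% of all genes). BAM3 rose by 0.88 ± 0.12 in eTK and 1.69 ± 0.12 in Col-0, a difference between the lines that was called in all 12 fits without 1 library (interaction −0.82 ± 0.16, adjusted p = 0.0151).

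The kinase gene CIPK20 had the largest fall among genes reaching 5 CPM that did not overlap in either line. It was at 0.276, 0.181 and 0.134 CPM in eTK of batch 2, against 40.1, 28.1 and 21.2 CPM in eTK of batch 1, and at 0.245, 0.281 and 0.454 CPM in Col-0 of batch 2, against 15.4, 13.6 and 12.9 CPM in Col-0 of batch 1 (log2 −6.29 ± 0.32, adjusted p = 1.20e-08). Other large falls were AT2G15880, encoding a leucine-rich repeat family protein (−3.72 ± 0.19), and AT3G55240, of unknown function (−3.37 ± 0.23). Among the largest rises were AT2G15020 (4.40 ± 0.49) and AT1G65490 (4.24 ± 0.16), both uncharacterized, AT3G28270, a putative transmembrane protein (3.87 ± 0.21), AT1G64500, of the glutaredoxin family (3.74 ± 0.13), and cPT4, of the undecaprenyl pyrophosphate synthetase family, at 41.4 to 44.4 CPM in eTK of batch 2, against 2.88 to 3.64 in batch 1, and at 46.4 to 54.7 CPM in Col-0 of batch 2, against 4.26 to 4.39 in batch 1 (log2 3.63 ± 0.08, adjusted p = 7.52e-12).

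Cold-response genes, which are driven by CBF factors through the CRT/DRE core, were lower in batch 2, none of 14 higher and 12 lower (median −1.82). The falls were 85.7% of the list, against 17.2% of all genes. RD29A (AT5G52310), a cold and drought protein with 3 CRT/DRE cores in the promoter shown above, was at 30.6, 28.1 and 46.6 CPM in eTK of batch 2, against 468, 250.0 and 156 CPM in eTK of batch 1, and at 24.4, 20.9 and 31.3 CPM in Col-0 of batch 2, against 44.4, 44.9 and 34.1 CPM in Col-0 of batch 1. The eTK libraries of batch 1 were far above the other 9. The batches did not overlap in either line, and the log2 difference was −3.05 ± 0.37 in eTK and −0.69 ± 0.35 in Col-0, of which the Col-0 value did not pass (adjusted p = 0.155). The difference between lines was called (interaction −2.36 ± 0.50, adjusted p = 0.0253) in the fit of all 12 libraries and in 5 of 12 fits without 1 library. COR15B, a chloroplast cold protein, was at 4.90, 5.61 and 5.26 CPM in eTK of batch 2, against 43.4, 31.0 and 22.7 CPM in eTK of batch 1, and at 3.56, 5.16 and 3.91 CPM in Col-0 of batch 2, against 8.95, 8.18 and 8.15 CPM in Col-0 of batch 1. It fell in both lines (log2 −2.62 ± 0.21 in eTK and −0.998 ± 0.20 in Col-0), and the interaction (−1.62 ± 0.28, adjusted p = 0.00925) was called in all 12 fits without 1 library. COR15A, its close copy, fell by 2.85 ± 0.43. In eTK 13 of the 14 members fell (92.9%, against 12.6% of all genes) and in Col-0 6 (42.9%, against 15.2%). The interaction called 4 (28.6%, against 5.95% of all genes). That count ran from 1 (without Col-0 batch 2 replicate 4, Col-0 batch 1 replicate 2 or 3, eTK batch 2 replicate 4 or 5, or eTK batch 1 replicate 2) to 6 when single libraries were left out. The abscisic acid list was split, 9 higher and 5 lower of 27 (51.9% called, against 37.8% of all genes). In eTK 7 rose and 8 fell (55.6%, against 28.2%), and in Col-0 10 rose and 2 fell (44.4%, against 35.1%). HAB1, a phosphatase that represses abscisic acid signalling, was at 51.0 to 55.3 CPM in eTK of batch 2, against 17.7 to 18.9 in batch 1, and at 44.1 to 52.6 CPM in Col-0 of batch 2, against 14.8 to 16.6 in batch 1 (log2 1.56 ± 0.06, adjusted p = 4.12e-10), and RAB18, a dehydrin, had log2 differences of −2.52 ± 0.39 in eTK and −0.42 ± 0.41 in Col-0 (interaction adjusted p = 0.0526).

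Sulfur-starvation genes were higher in batch 2, 12 of 16 higher and none lower (median 0.94). The rises were 75% of the list, against 20.6% of all genes. APR2 (AT1G62180), the reductase that controls sulfate assimilation, was at 347, 369 and 349 CPM in eTK of batch 2, against 95.3, 92.9 and 92.1 CPM in eTK of batch 1, and at 248, 242 and 246 CPM in Col-0 of batch 2, against 81.7, 88.0 and 88.3 CPM in Col-0 of batch 1. Each batch 2 library stood well above each batch 1 library (log2 1.72 ± 0.08, adjusted p = 2.05e-09). SDI1, a repressor of glucosinolate synthesis made in sulfur lack, rose by 2.02 ± 0.23, BGLU28, a glucosidase, by 2.35 ± 0.40, and LSU2, a small protein of the same response, by 1.45 ± 0.14. In eTK 12 members rose (75% called, against 28.2% of all genes), and in Col-0 12 rose and 1 fell (81.2%, against 35.1%). Of 13 copper genes 8 were higher and none lower (61.5% called, against 37.8% of all genes). In eTK 8 rose, and in Col-0 8 rose and 1 fell. Their summed level in eTK was 2187 to 2295 CPM in batch 2, against 1569 to 1851 in batch 1. In Col-0 it was lower in batch 2, at 2411 to 2522 CPM, against 2550 to 2725 in batch 1. Log2 differences were 1.06 ± 0.09 for the transporter COPT2 and 0.60 ± 0.10 and 0.69 ± 0.06 for the superoxide dismutases CSD1 and CSD2. For CSD1 the lines differed (interaction −0.66).

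Phosphate-starvation genes were higher in batch 2, with more members called in eTK. Of 28 members 22 were higher and none lower (median 0.71), with 21 higher in eTK and 6 in Col-0. In eTK these were 75% of the list, against 15.6% of all genes. In Col-0 they were 21.4%, against 19.9%. The Col-0 count was 3 without Col-0 batch 2 replicate 4 or any 1 of the Col-0 batch 1 libraries and at most 10 without another library. SPX1 (AT5G20150), a phosphate sensor protein, was at 176, 128 and 134 CPM in eTK of batch 2, against 45.5, 54.0 and 50.0 CPM in eTK of batch 1, and at 223, 143 and 145 CPM in Col-0 of batch 2, against 139, 163 and 182 CPM in Col-0 of batch 1. In eTK the batches did not overlap, and in Col-0 they did (log2 1.55 ± 0.18 in eTK and 0.08 ± 0.17 in Col-0; interaction 1.47 ± 0.25, adjusted p = 0.00883, called in all 12 fits without 1 library). PHO1-H1, of the PHO1 family of phosphate exporters, was at 37.0, 31.9 and 26.4 CPM in eTK of batch 2, against 11.2, 13.2 and 13.6 CPM in eTK of batch 1, and at 36.7, 31.1 and 27.1 CPM in Col-0 of batch 2, against 35.0, 38.6 and 41.9 CPM in Col-0 of batch 1 (interaction 1.61 ± 0.19, adjusted p = 0.00165). The non-coding RNA IPS1 rose in both lines, by 2.62 ± 0.29 in eTK and 1.44 ± 0.27 in Col-0, and SPX3, whose promoter with 2 P1BS elements is shown above, had log2 differences of 2.14 ± 0.41 in eTK and 0.57 ± 0.37 in Col-0, of which the Col-0 value did not pass (adjusted p = 0.263). The interaction called 9 members higher and 1 lower (35.7% of the list, against 5.95% of all genes). The number higher ran from 5 (without eTK batch 2 replicate 4 or eTK batch 1 replicate 1 or 2) to 13. P1BS elements stood in 28.6% of the promoters of this list and in 6.57% of all.

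Of 26 genes of nitrate and ammonium uptake and assimilation 15 were higher and 3 lower (69.2% called, against 37.8% of all genes). NIA2 (AT1G37130), the main nitrate reductase, was at 1896, 1821 and 1616 CPM in eTK of batch 2, against 574, 616 and 644 CPM in eTK of batch 1, and at 1988, 2049 and 1995 CPM in Col-0 of batch 2, against 1383, 1467 and 1487 CPM in Col-0 of batch 1. The rise was larger in eTK (1.54 ± 0.09 in eTK and 0.48 ± 0.09 in Col-0; interaction 1.06 ± 0.12, adjusted p = 0.00133, called in all 12 fits without 1 library). The interaction was positive too for ASN2, an asparagine synthetase (0.93 ± 0.15, adjusted p = 0.00664), and for UPM1, an enzyme of siroheme synthesis (0.74 ± 0.13, adjusted p = 0.00821). Across the list it called 6 members higher and 1 lower (26.9%, against 5.95% of all genes). By line 14 members rose and 3 fell in eTK (65.4% called, against 28.2% of all genes). In Col-0 13 rose and 3 fell (61.5% called, against 35.1%).

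Iron-deficiency genes were higher in batch 2, with more members called in Col-0. Of 25 members 16 were higher and none lower (64% called, against 37.8% of all genes), a count of 10 without Col-0 batch 1 replicate 2. By line 7 rose and 2 fell in eTK (36% called, against 28.2%), while 23 rose in Col-0 (92%, against 35.1%). BHLH100 (AT2G41240), a factor that turns on iron uptake, was at 3.34, 2.66 and 4.90 CPM in eTK of batch 2, against 3.52, 1.62 and 0.759 CPM in eTK of batch 1, and at 5.71, 2.57 and 4.30 CPM in Col-0 of batch 2, against 0.0231, 0.11 and 0.0633 CPM in Col-0 of batch 1. The Col-0 libraries of batch 1 were near 0 and stood apart from the other 9 (batch difference 0.91 ± 0.48 in eTK and 5.90 ± 0.69 in Col-0; interaction −4.99 ± 0.86, adjusted p = 0.0106, called in all 12 fits without 1 library). IRT1, the root iron transporter, had log2 differences of 0.37 ± 0.58 in eTK and 3.63 ± 0.68 in Col-0, and its interaction missed the threshold (adjusted p = 0.0567). NAS4, a nicotianamine synthase, rose in both lines, by 1.25 ± 0.10 in eTK and 1.27 ± 0.10 in Col-0. The ferritin FER1, an iron store, had log2 differences of 0.03 ± 0.10 in eTK and −0.68 ± 0.10 in Col-0 (interaction 0.70 ± 0.14, adjusted p = 0.0157). The interaction called 10 members of the iron list lower and none higher (40%, against 5.95% of all genes). The number lower ran from 4 (without Col-0 batch 1 replicate 2 or eTK batch 2 replicate 4) to 19 when single libraries were left out. BHLH38 and BHLH39 are close copies and are not given singly.

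Across the genome the 2 lines shared part of the batch difference. In eTK 6329 genes (28.2%) differed between batches and in Col-0 7869 (35.1%), and 3663 genes were called in both lines, 3555 of them in the same direction and 108 in opposite directions. The shared genes made up 56.2% of the eTK calls and 45.2% of the Col-0 calls. Over all genes the 2 lines' log2 differences, which rest on separate libraries, had a Pearson r of 0.468, given as a description across genes. Libraries of the 2 batches did not overlap in either line for 2807 genes (12.5%) higher in both, 2462 (11%) lower in both and 445 (1.98%) of opposite direction. The interaction called 1335 genes (5.95%), 537 (2.39%) with a higher and 798 (3.56%) with a lower batch difference in eTK. Of these 505 were higher in batch 2 in Col-0 and not called in eTK, and 227 were higher in batch 2 in eTK and not called in Col-0. By 2-fold or more, 692 genes (3.08%) were higher and 459 (2.05%) lower in eTK, and 1323 (5.89%) higher and 310 (1.38%) lower in Col-0. By the same measure 430 genes (1.92%) had a lower and 62 (0.276%) a higher batch difference in eTK. The count of interaction calls depended on single libraries: it was 476 to 688 when Col-0 batch 2 replicate 4, any Col-0 batch 1 replicate, eTK batch 2 replicate 4 or 5, or eTK batch 1 replicate 1 or 2 was left out, and 3323 without eTK batch 2 replicate 6.

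**Figure D4:**
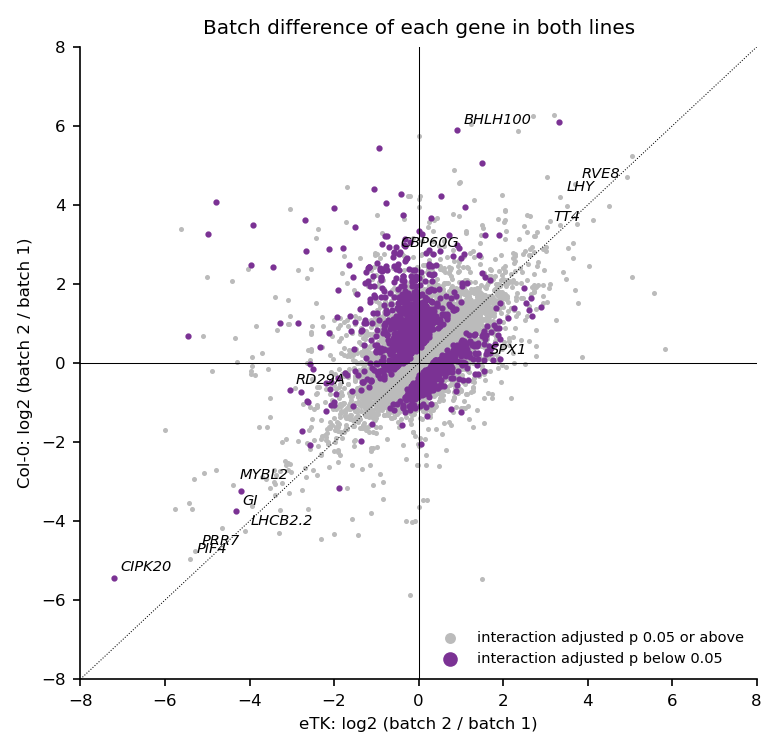
Log2 difference of batch 2 over batch 1 for each of 22443 genes in eTK (horizontal axis) and in Col-0 (vertical axis); purple points had an interaction adjusted p below 0.05, and the dotted line marks equal differences. Of 3663 genes called in both lines 3555 have the same direction, and the 505 genes higher in Col-0, not called in eTK and called by the interaction make up the largest group of purple points.

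Defence genes were higher in batch 2 of Col-0. Of 27 salicylate and pattern-triggered defence genes 4 rose and 2 fell in eTK (22.2% called, against 28.2% of all genes). In Col-0 16 rose and none fell (59.3% called, against 35.1% of all genes). CBP60G (AT5G26920), a master activator of salicylate synthesis, was at 1.00, 1.81 and 1.95 CPM in eTK of batch 2, against 3.01, 2.24 and 1.92 CPM in eTK of batch 1, and at 45.7, 52.1 and 63.6 CPM in Col-0 of batch 2, against 3.70, 9.06 and 10.6 CPM in Col-0 of batch 1. It rose in Col-0 and did not pass in eTK (−0.58 ± 0.40 in eTK and 2.79 ± 0.35 in Col-0; interaction −3.37 ± 0.52, adjusted p = 0.008). CHI (AT2G43570), a chitinase gene, was at 3.62, 3.48 and 6.96 CPM in eTK of batch 2, against 7.04, 6.75 and 6.53 CPM in eTK of batch 1, and at 37.9, 39.1 and 55.5 CPM in Col-0 of batch 2, against 3.81, 6.89 and 6.46 CPM in Col-0 of batch 1 (interaction −3.48 ± 0.40, adjusted p = 0.00182). Both interactions were called in all 12 fits without 1 library. CYP71A12, a camalexin enzyme, and GLP9, a germin-like protein, had interactions of −4.70 ± 0.90 and −3.46 ± 0.67, called in 9 of 12 such fits, and the extensin-like loci AT1G26250 and AT1G26255, which hold the same values and may share reads, had −3.60 ± 0.74, called in 6. With the 6 heated libraries also in the fit these interactions were not called (adjusted p = 0.108 for CYP71A12, 0.0757 for GLP9 and 0.0614 for both AT1G26250 and AT1G26255). The defensin-like AT1G13609 rose in both lines, more so in Col-0 (1.50 ± 0.30 in eTK and 5.08 ± 0.36 in Col-0), and AT2G14247, uncharacterized, rose in Col-0 by 3.67 ± 0.47. The interaction called 7 defence genes lower and none higher (25.9% of the list, against 5.95% of all genes). The number lower ran from 2 (without eTK batch 2 replicate 4) to 11 when single libraries were left out. The W-box stood in 50.0% of the promoters of the 430 genes whose batch difference was lower in eTK by 2-fold or more, against 32.3% of all. In the same promoters the I-box stood in 19.5%, against 14.5% of all, and the site II element in 5.58%, against 16.3%. FMO1, an enzyme of systemic immunity, was among the rises in Col-0 (−0.25 ± 0.36 in eTK and 1.78 ± 0.24 in Col-0; interaction −2.04 ± 0.43, adjusted p = 0.0184). RBOHD, the oxidase of the immune burst, rose in both lines (1.18 ± 0.08 in eTK and 1.24 ± 0.08 in Col-0).

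The lists of early stress genes and glutathione transferases had the same tilt. Of 26 early stress and touch genes 7 rose in eTK and 22 in Col-0, with none lower. The share called was 26.9% in eTK, against 28.2% of all genes, and 84.6% in Col-0, against 35.1%. The interaction called 8 of them lower (30.8%, against 5.95% of all genes). That count ran from 3 (without Col-0 batch 1 replicate 2, eTK batch 2 replicate 4 or eTK batch 1 replicate 1) to 10. ZAT12, a zinc finger factor of many stresses, was at 2.51 to 3.30 CPM in eTK of batch 2, against 2.24 to 4.00 in batch 1, and at 5.70 to 8.59 CPM in Col-0 of batch 2, against 1.94 to 2.12 in batch 1 (interaction −1.78 ± 0.30, adjusted p = 0.00772). Of 16 glutathione transferases 6 rose and 1 fell in eTK (43.8% called, against 28.2% of all genes). In Col-0 15 rose (93.8% called, against 35.1%). GSTU10 was −0.04 ± 0.12 in eTK and rose by 1.20 ± 0.12 in Col-0 (interaction −1.25 ± 0.17, adjusted p = 0.00243).

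Heat shock genes, the targets of the HSFA1 factors, differed between batches in Col-0 without any heating. Of 28 heat shock protein genes 6 rose and 2 fell in eTK (28.6% called, against 28.2% of all genes), and 11 rose and 3 fell in Col-0 (50% called, against 35.1% of all genes). The falls in eTK numbered 0 without eTK batch 1 replicate 1. HSP70 (AT3G12580, the heat-inducible cytosolic chaperone) was at 2.94, 3.36 and 6.14 CPM in eTK of batch 2, against 4.00, 3.14 and 2.90 CPM in eTK of batch 1, and at 47.3, 41.0 and 48.5 CPM in Col-0 of batch 2, against 10.8, 11.4 and 10.4 CPM in Col-0 of batch 1. Its Col-0 batch 2 libraries stood above all others (0.32 ± 0.23 in eTK and 2.06 ± 0.21 in Col-0; interaction −1.75 ± 0.31, adjusted p = 0.0107, called in all 12 fits without 1 library). HSP90.1, the inducible HSP90, had log2 differences of 0.18 ± 0.17 in eTK and 1.27 ± 0.15 in Col-0 (interaction −1.09 ± 0.22, adjusted p = 0.0173). HSFB1, a repressing heat shock factor, rose in both lines, less in eTK (0.44 ± 0.12 in eTK and 1.47 ± 0.12 in Col-0; interaction −1.03 ± 0.16, adjusted p = 0.0057). The interaction called 5 heat shock proteins (17.9% of the list, against 5.95% of all genes), all lower in eTK. It called 3 without Col-0 batch 1 replicate 1 or 2, eTK batch 2 replicate 4 or 5, or eTK batch 1 replicate 1 or 2.

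**Figure D5:**
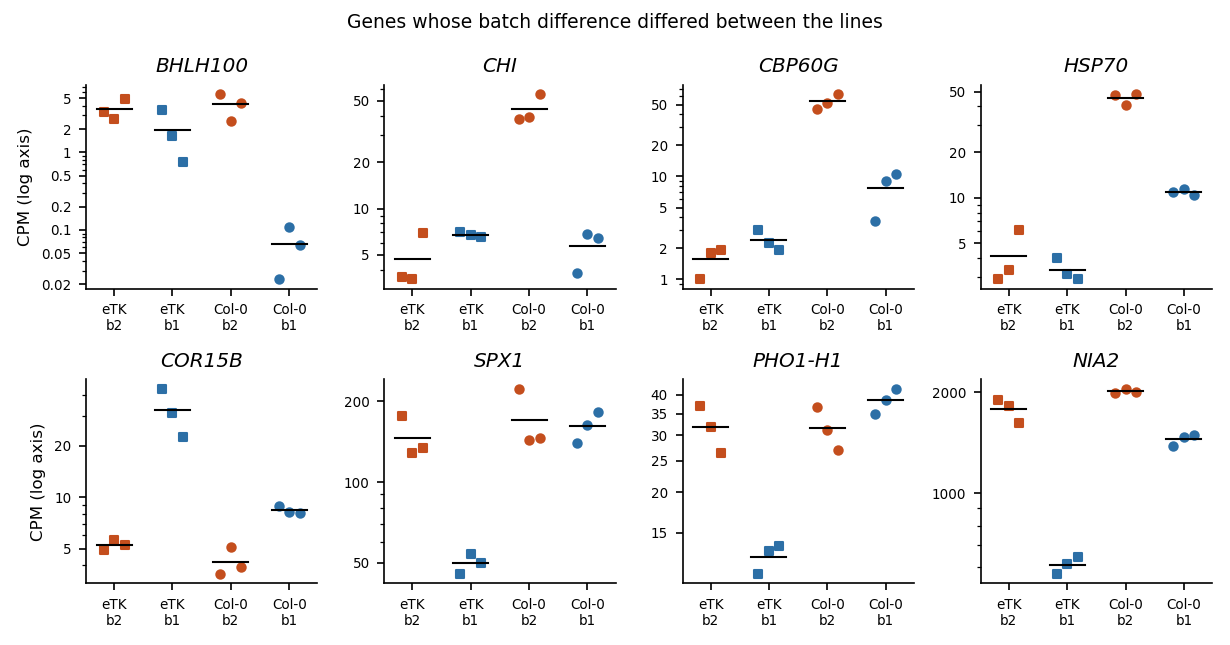
CPM on a log axis of 8 genes whose batch difference was called different between the lines, in each control library (squares eTK, circles Col-0, orange b2, blue b1; bars are means of 3 libraries). BHLH100, CHI, CBP60G and HSP70 are higher in batch 2 of Col-0 with smaller or no difference in eTK, COR15B is lower in both, and SPX1, PHO1-H1 and NIA2 are higher in batch 2 of eTK with smaller or no rise in Col-0.

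Among the genes with the most positive interaction, CYP706A6, a cytochrome P450, was at 74.6, 70.9 and 74.9 CPM in eTK of batch 2, against 22.6, 25.2 and 26.8 CPM in eTK of batch 1, and at 69.4, 80.0 and 129 CPM in Col-0 of batch 2, against 115, 104 and 98.9 CPM in Col-0 of batch 1 (interaction 1.75 ± 0.25, adjusted p = 0.00419). NAS3, another nicotianamine synthase, was 0.88 ± 0.18 in eTK and −0.71 ± 0.17 in Col-0 (interaction 1.58 ± 0.24, adjusted p = 0.005), and AT5G20790, uncharacterized, 1.77 ± 0.19 in eTK and 0.06 ± 0.18 in Col-0 (interaction 1.71 ± 0.26, adjusted p = 0.0059). These 3 and PHO1-H1 were called in all 12 fits without 1 library. MEE3, AT3G25240, AT4G15690 and CSLB03, with interactions of 1.51 to 2.10, were called in 3 to 7 of them, and that of AT3G25240 was not called with the 6 heated libraries also in the fit (adjusted p = 0.0577).

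Hormone and growth genes differed in both directions. Of 30 auxin-response genes 11 were lower and none higher in eTK, with 4 lower when eTK batch 1 replicate 1 was left out and at most 18 without another library. In Col-0 2 were lower and 3 higher (1 higher without Col-0 batch 1 replicate 3). The share of the list called was 36.7% in eTK, against 28.2% of all genes, 16.7% in Col-0, against 35.1%, and 26.7% with genotype as covariate, against 37.8%. SAUR15, an auxin-induced growth gene, fell by 1.52 ± 0.21. Gibberellin genes were 4 higher and 9 lower of 20 (65% called, against 37.8% of all genes). The synthesis gene GA20OX1 had log2 differences of −2.78 ± 0.39 in eTK and −0.72 ± 0.37 in Col-0 (interaction −2.06 ± 0.54, adjusted p = 0.0407, called in 3 of 12 fits without 1 library). GASA4, a gibberellin-induced peptide, fell by 0.87 ± 0.07. Brassinosteroid genes were 3 higher (1 without Col-0 batch 1 replicate 3) and 6 lower of 15, or 60% called. The synthesis enzyme CPD was among the falls (−0.72 ± 0.13). Cytokinin genes were 9 higher and none lower of 20, or 45% called. The rises were led by the response regulator ARR16, at 5.45 to 7.29 CPM in eTK of batch 2, against 1.70 to 3.04 in batch 1, and at 5.63 to 8.68 CPM in Col-0 of batch 2, against 2.10 to 2.79 in batch 1 (log2 1.56 ± 0.16, adjusted p = 4.98e-06). Of 33 cell cycle genes 13 were lower and none higher in Col-0, with 7 lower when Col-0 batch 2 replicate 6 or Col-0 batch 1 replicate 3 was left out. In eTK 5 were higher and 2 lower. With single libraries left out the number higher ran from 1 (without eTK batch 2 replicate 5 or eTK batch 1 replicate 1) to 12. The number lower ran from 0 (without any 1 of the Col-0 batch 1 libraries, eTK batch 2 replicate 4 or 6, or eTK batch 1 replicate 2 or 3) to 6. Of the list 21.2% was called in eTK, against 28.2% of all genes, and 39.4% in Col-0, against 35.1%. MCM3, a replication helicase subunit, fell in both (log2 −0.31 ± 0.11 in eTK and −0.59 ± 0.11 in Col-0). Of 29 jasmonate genes 9 were higher and 2 lower, a share called (37.9%) near that of all genes (37.8%), with a median log2 difference of 0.01. The share called was 31% in eTK, against 28.2% of all genes, and 20.7% in Col-0, against 35.1%. Among the rises, JAZ9, a jasmonate repressor, rose by 1.76 ± 0.16 in eTK and 1.40 ± 0.16 in Col-0. LOX2, a lipoxygenase of jasmonate synthesis, rose by 1.79 ± 0.12 in eTK and 0.95 ± 0.11 in Col-0 (interaction 0.83 ± 0.16, adjusted p = 0.0134).

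Markers of cell types were examined beside these. In bulk seedlings fewer cells of a type and less RNA per cell cannot be told apart. Of 19 root cell markers 2 were higher and none lower (10.5% called, against 37.8% of all genes), namely SCR (0.21 ± 0.05; adjusted p = 0.196 with the 6 heated libraries also in the fit), of the endodermis, and PYK10 (0.74 ± 0.17), a root glucosidase. The summed level of the 19 was 2806 to 4633 CPM in eTK of batch 2, against 2549 to 2872 in batch 1, and 5238 to 9188 CPM in Col-0 of batch 2, against 3249 to 4201 in batch 1, and PYK10 made up most of it, at 2493 to 4315 CPM in eTK of batch 2, against 2201 to 2513 in batch 1, and at 4919 to 8919 CPM in Col-0 of batch 2, against 2960 to 3840 in batch 1. The Col-0 libraries of batch 2 thus lay above those of batch 1 in this sum, which mainly follows PYK10, while in eTK the ranges overlapped. The median log2 difference of the 19 markers was −0.02 in eTK and 0.08 in Col-0. Iron, phosphate and nitrate uptake genes act in roots, and the part of root tissue in their differences was not tested. Of 10 vascular markers none was higher and 5 lower (50% called, against 37.8% of all genes). The number lower was 3 without Col-0 batch 2 replicate 5 or Col-0 batch 1 replicate 1 or 2. In eTK 1 rose and 1 fell (20% called, against 28.2%), and in Col-0 none rose and 8 fell (80%, against 35.1%). The interaction called 3 (30%, against 5.95% of all genes). SUC2, the phloem sucrose carrier, had log2 differences of −0.07 ± 0.12 in eTK and −0.77 ± 0.12 in Col-0. Of 13 stomatal lineage markers 3 were higher and 1 lower (30.8% called, against 37.8% of all genes). The number higher was 1 when Col-0 batch 1 replicate 1 or 2, eTK batch 2 replicate 5 or 6, or eTK batch 1 replicate 2 or 3 was left out. Of 7 shoot meristem and epidermis markers 1 was higher (14.3% called, against 37.8% of all genes). Of 12 seed and embryo genes 3 were lower in eTK (25% called, against 28.2% of all genes). That count was 0 without eTK batch 2 replicate 5 or eTK batch 1 replicate 1 and at most 4 without another library. In Col-0 1 was higher (none without Col-0 batch 2 replicate 6 or Col-0 batch 1 replicate 1), 8.33% called, against 35.1% of all genes. The flower markers AP1 and LFY did not pass the filter on low counts. Of 8 reference genes GAPC2 rose by 0.65 ± 0.09 and PP2AA3 fell by 0.25 ± 0.05.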

How the data were processed

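RNA-seq of 12 control libraries of Arabidopsis thaliana was analysed, 3 in each of 4 groups of line and batch, assigned from the sample labels. The authors deposited whole-number counts per gene in 1 table. Per the submitters' processing notes, reads were handled with fastp 0.24.0, STAR 2.7.9a and featureCounts of Subread 2.0.6. Their settings, the strand setting, the genome build and the annotation are not given in the sources used here. Even numbers made up 75.4% to 81.4% of each library's counts above 0. Mates of a pair may thus have been counted singly, and halved, rounded counts were tried as an alternative.

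Counts were filtered with filterByExpr, scaled with TMM factors and fitted with edgeR 4.0.16 (limma 3.58.1, R 4.3.3) by the robust quasi-likelihood test. The batch difference was fitted with genotype as a covariate over the 12 libraries. The batch difference within each line and their interaction (eTK minus Col-0) came from 1 fit of the 4 groups, which share 1 estimate of the spread. P-values were adjusted by Benjamini-Hochberg over all 22443 genes, and an adjusted p below 0.05 was called. The SE of a log2 difference is its size divided by the square root of the F statistic. Shares of counts were compared by a two-sided exact permutation test of batches within lines, of 400 arrangements, adjusted over 3 measures. Library totals of 63270189 to 110875442 counts leave spread between libraries, not counting error, as the main limit for genes above a few CPM. All 12 pairs of replicates within groups differed beyond counting noise by a chi-square test. Whether replicates were grown separately is not stated in the labels. The p-values therefore reflect only how these samples vary, which may be technical spread. The fits were also run on simulated counts with independent libraries and far fewer changed genes than were called here. That run checks the code and does not bear on the calls made here.

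Genes were named by rule. These were a core panel of 14 clock, light and targeted genes, and the 10 largest rises and 10 largest falls among called genes that did not overlap in either line and reached 5 CPM. To these were added, for each of 50 lists, the 3 called members with the largest difference at 1 CPM or more, up to 6 more where at least 60% of a list was called, and the 8 largest interactions in each direction at 5 CPM or more. A few genes outside the rule are said to be so. The comparison and the lists were chosen with earlier results of these data known. Names, roles of loci and promoters came from RefSeq TAIR10.1, in which 27445 nuclear genes were matched by locus. Alternatives were DESeq2 1.42.0 (Wald test, and its size factors in the edgeR fit), library size alone, no filter on low counts, organelle genes left out, all 18 Arabidopsis libraries in the fit, a replicate block, the mean of both lines, and each library left out. The 36 Marchantia samples were not used, and the 6 heated libraries entered only the alternative of all 18 libraries.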

Additional observations from a re-analysis of the deposited data

Results flagged for a closer look

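The batch difference departed between the lines, by the edgeR interaction test at an adjusted p below 0.05, for each gene given here. Values are log2 interactions, the batch difference in eTK minus that in Col-0.

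Negative interactions among iron and defence genes were −4.99 for BHLH100, −4.70 for CYP71A12, −3.48 for CHI, −3.46 for GLP9, −3.37 for CBP60G and −2.04 for FMO1. Among loci of less known role they were −3.60 for both AT1G26250 and AT1G26255, −3.57 for AT1G13609, −3.39 for AT2G14247, −2.77 for AT2G15020 and −0.95 for AT2G15880. Stress and heat shock genes had −1.78 for ZAT12, −1.75 for HSP70, −1.09 for HSP90.1, −1.03 for HSFB1, −1.25 for GSTU10 and −0.66 for CSD1. The cold genes RD29A and COR15B had −2.36 and −1.62, and the kinase gene CIPK20 had −1.78. Clock, light and growth genes had −2.06 for GA20OX1, −1.03 for BBX22, −1.004 for RVE7, −0.65 for ELF4, −0.57 for GI and −0.57 for GLK2. The starch and sugar genes BAM3, TPS11 and BGAL4 had −0.82, −0.66 and −0.80.

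Positive interactions among nutrient genes were 1.47 for SPX1, 1.61 for PHO1-H1, 1.06 for NIA2, 0.93 for ASN2, 0.74 for UPM1, 1.25 for SDI1, 0.41 for APR2, 1.58 for NAS3 and 0.70 for FER1. Other positive values were 2.10 for MEE3, 1.75 for CYP706A6, 1.71 for AT5G20790, 1.70 for AT3G25240, 1.52 for AT4G15690, 1.51 for CSLB03, 0.83 for LOX2, 0.70 for SUC2 and 0.63 for GAPA. Outside the naming rule, LHCA6 had 0.54 and LNK2 −1.29.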

How the results depend on the processing

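The counts of genes that differed between batches stayed within 1.5 times the reported count under the alternatives run. This held with genotype as covariate and within each line. No named gene that passed in the reported fit or in an alternative had opposite directions in those fits. Changes of direction where neither fit passed were not counted. With single libraries left out the count ran from 7276 to 8762 with genotype as covariate, from 6062 to 8569 in Col-0 and from 4355 to 7158 in eTK. A tally over the fits without 1 library took the batch differences of named genes with genotype as covariate. It also took the interactions of the genes named as the 8 largest in each direction. These values kept their side of the threshold in 3570 cases, lost the call in 178 and gained it in 8. Differences within lines and the other named interactions were not part of this tally or of the statement on directions. The interaction count of 1335 depended on the setting. It was 508 with all 18 libraries in the fit and 2756 by the DESeq2 Wald test, and 476 (without eTK batch 1 replicate 2) to 3323 (without eTK batch 2 replicate 6) with single libraries left out. The cause was not tested. The plastid share differed by 0.00758 to 0.0250 percentage points, batch 2 minus batch 1, and passed the test only without eTK batch 2 replicate 4 (adjusted p = 0.0075).

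Replicate numbers were not taken to pair the lines, since deviations of same-numbered libraries correlated at −0.09 to 0.24 and only 2 of 6 pairs were over 0.1. With a replicate block the interaction count was 2936, and the batch counts were 9237 with genotype as covariate, 7958 in Col-0 and 6404 in eTK. Among named genes HSFA1B passed with the block (−0.30, adjusted p = 0.0394), and the CYP71A12 interaction did not (adjusted p = 0.0738). Scaling by library size alone moved the median log2 difference to 0.06, with 62.1% of called genes higher against 54.4% as reported. With all 18 libraries in the fit the median was −0.009 and the share higher 46.9%, so that falls outnumbered rises. Genes under 1 CPM, such as PRR9, rest on few counts and their differences are less precise.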
